A study of Mus musculus with 3 samples.

Results

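The collagen genes are the 44 genes of the deposited annotation, among 32285, whose whole symbol is Col, a number, the letter a and a number. They were chosen by name alone, and all of them are counted here whether or not they had a UMI (unique molecular identifier, a tag that marks 1 captured RNA molecule). Single-cell RNA sequencing had been run on dissociated mouse cochleae at P14 (1 library) and P28 (2 libraries, P28 replicate 1 and P28 replicate 2). Each library pooled 14 cochleae of 7 mice of the strain C57BL/6J (C57/B6 in the labels), and no mutation or treatment set the groups apart, so that age was the only difference between them by design. Single mice cannot be told apart within a pool. The tissue had been loosened with Collagenase IV, an enzyme that cuts collagen, and cells held fast in matrix may be under-represented, which was not tested here.

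Collagens are secreted or membrane-bound proteins built of 3 chains, alike or different, wound into a triple helix, and a gene codes for 1 chain. Fibrillar collagens (types I, II, III, V and XI among them) form the fibres of bone, cartilage and connective tissue, and FACIT collagens such as type IX decorate the surface of those fibres. Type IV builds the sheet of basement membranes, multiplexins such as type XVIII are attached to them, type VI forms beaded filaments and type VIII short-chain networks, while transmembrane collagens stay anchored in the membrane of the cell. In the cochlea, types II, IX and XI belong to the tectorial membrane and to the fibres of the ligament and limbus, and the α3, α4 and α5 chains of type IV form a network of their own. Mutations in *COL11A2*, *COL9A1* and *COL4A3* to *COL4A5* are known causes of human hearing loss.

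Barcodes with 200 to 6000 genes and at most 15% mitochondrial UMIs were kept, which left 1662, 5651 and 7065 cells with medians of 2477, 2421 and 2037 UMIs. These values, like every set of 3 values below, are given in the order P14, P28 replicate 1, P28 replicate 2. Mitochondrial shares differed between the ages, since 19.8%, 50.1% and 59.2% of the barcodes exceeded the limit, and the kept cells had medians of 6.24%, 10.0% and 10.8%. Cell barcodes were shared between pairs of libraries in 10 to 54 cases. Cells were clustered without the collagen genes, and a cluster was named "X-like" from a list of markers. The level of a gene was taken as its UMIs in all cells of a class and library, per 1000000 UMIs of these cells (CPM). These levels count 3′ ends and do not scale with the length of a gene. Only class and library sums with at least 10 cells are given, and bone cell-like cells reached this in P28 replicate 2 alone (29 cells, against 8 at P14).

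Collagen RNA was most abundant at P14. The 44 genes together held 28397, 26490 and 36124 UMIs, which is 0.382%, 0.108% and 0.155% of all UMIs of the kept cells. Of the 44 genes, 39, 42 and 41 had at least 1 UMI in a library. *Col6a5* and *Col17a1* had 0 UMIs in all 3 libraries, *Col10a1* had 2, *Col6a4* had 3 and *Col28a1* had 7, too few to describe. The 11 fibrillar genes held 62.5% of all collagen UMIs, the 9 FACIT genes 14.3%, the 6 type IV genes 6.39%, the 3 short-chain genes 4.98%, the 4 transmembrane genes 4.66%, the 2 multiplexins 4.44% and the 6 type VI genes 1.15%. *Col7a1*, the collagen of anchoring fibrils, held 0.191%. There were 28 genes with at least 300 UMIs over the 3 libraries, and the levels given below are mostly theirs.

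The share of collagen among the UMIs of a cell class spanned more than 2 orders of magnitude. It was highest in the bone cell-like cells, where collagens made up 6.05% of all UMIs (exact Poisson interval at 95% 5.90% to 6.20%, counting error only). Fibrocyte-like cells, led by *Coch*, *Mgp*, *Spp1* and *Acan*, had 3.19%, 0.711% and 0.855%. A mesenchymal class led by *Abcc9*, *Fst* and *Moxd1* had 2.82%, 0.401% and 0.384%. In both of these the P14 library stood above both P28 libraries. Tympanic border cell-like (TBC-like) cells, which lie under the basilar membrane, had 0.837%, 0.140% and 0.147%, and fibroblast-like cells, led by *Ccl11* and *Dcn*, had 0.714%, 0.224% and 0.226%. Among epithelial classes the cells named after the inner sulcus, Hensen and outer sulcus cells (ISC/HeC/OSC-like) had 0.395%, 0.0953% and 0.101%, and Reissner's membrane-like (RM-like) cells 0.352%, 0.137% and 0.139%.

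Hair cell-like and neuron-like cells held little collagen RNA. Outer hair cell-like cells had 0.0118%, 0.0215% and 0.0279%, inner hair cell-like cells 0.0481%, 0.0432% and 0.0464%, and the spiral ganglion neuron-like (SGN-like) cells of the P28 libraries 0.0206% and 0.0259%. Red blood cell-like, B cell-like, macrophage-like and granulocyte-like cells, which are not known for collagen synthesis, serve as a gauge of free RNA, and their shares ran from 0.0108% to 0.112% at P14, from 0.0187% to 0.0495% in P28 replicate 1 and from 0.0518% to 0.102% in P28 replicate 2. The hair cell and neuron values lay within or below the range of the gauge classes of the same library, so that these sums were not told apart from the level of classes not known for collagen synthesis. In P28 replicate 2 the ISC/HeC/OSC-like share (0.101%) also lay within that range, though it stood above the range in P28 replicate 1 and at P14. Inner phalangeal and inner border cell-like cells (0.0833%) and Deiters and pillar cell-like cells (0.0588%) lay within it in P28 replicate 2 too. Schwann and satellite glial cell-like (SC/SGC-like) cells stood above the gauge in both P28 libraries (0.255% and 0.220%) and within it at P14 (0.0946%, 30 cells), an order opposite to that of the connective tissue classes.

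**Figure D1:**
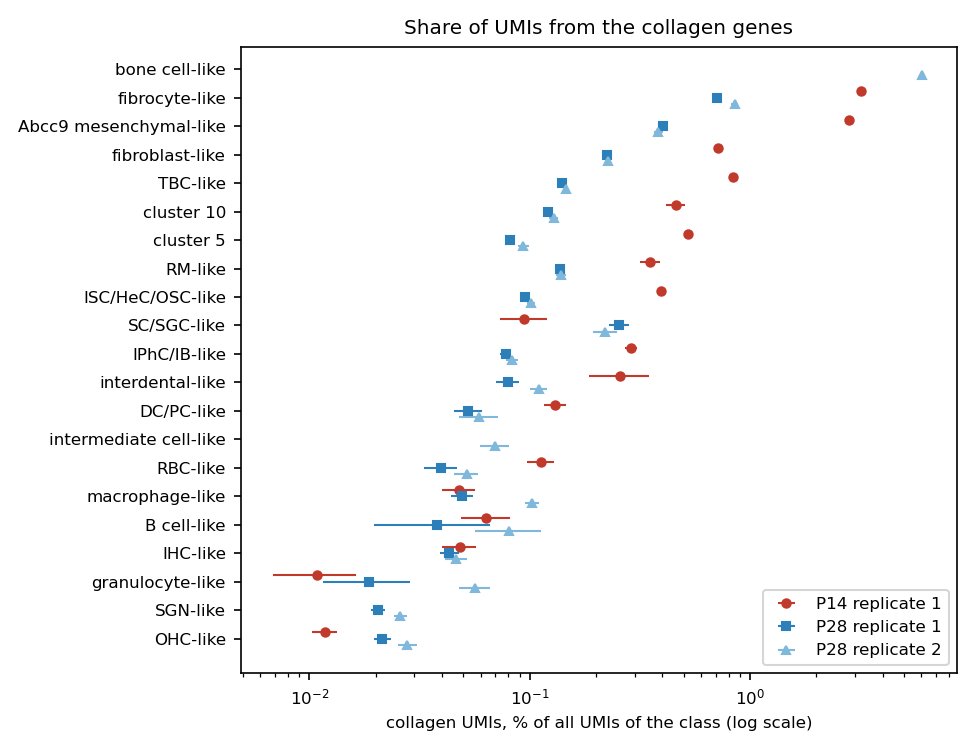
Share of collagen UMIs among all UMIs of a class (percent, log axis) in each library, with exact Poisson intervals at 95%. Bone cell-like cells stand at 6.05%, fibrocyte-like cells at 3.19%, 0.711% and 0.855%, and outer hair cell-like cells at 0.0118%, 0.0215% and 0.0279%.

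Type I is the main collagen of bone and of most connective tissue, and its usual triple helix holds chains of both *Col1a1* and *Col1a2*. *Col1a2* was the most abundant collagen RNA of the series, with 18023 UMIs. Its level was 20891 CPM in the bone cell-like cells, 8826, 1829 and 2288 CPM in fibrocyte-like cells, 9385, 1218 and 1024 CPM in the *Abcc9* mesenchymal class, 3189, 336 and 357 CPM in TBC-like cells and 2154, 588 and 600 CPM in fibroblast-like cells. *Col1a1* had 2297 UMIs, and 86.6% of them came from the 29 bone cell-like cells, where it reached 18543 CPM. In the other connective tissue classes it was scarce beside its partner.

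The UMIs of *Col1a1* amounted to 88.8% of those of *Col1a2* in the bone cell-like cells of P28 replicate 2 (1990 against 2242 UMIs). In fibrocyte-like cells they amounted to 5.83%, 7.32% and 11.8%, in fibroblast-like cells to 1.09%, 0.131% and 0.370%, and in TBC-like cells to 0%, 0.137% and 0.782%. The ratio in bone cell-like cells is that of P28 replicate 2 alone, where it was above that of each of these classes. In the 8 bone cell-like cells at P14, *Col1a2*, *Col2a1* and *Col11a2* held 37.1%, 32.1% and 16.2% of 623 collagen UMIs. *Col1a1* lay below these at P14, so that the high ratio was not seen at both ages. The *Abcc9* mesenchymal class had 0 UMIs of *Col1a1* in all 3 libraries, which allows levels of up to 23.8, 7.50 and 7.06 CPM (3 counts in each library), against 1185, 487 and 435 UMIs of *Col1a2*. The level of *Col1a2* was thus at least 395-fold, 162-fold and 145-fold higher than that of *Col1a1*. The markers of bone cells were not absent from this class, where *Dmp1*, a gene of osteocytes, reached 989.9, 168 and 169.5 CPM, while Mepe was at 0 in all 3 libraries and *Sp7* at 0 in 2 of them. Whether the counting of 3′ ends captures both RNAs alike in all classes was not tested.

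**Figure D2:**
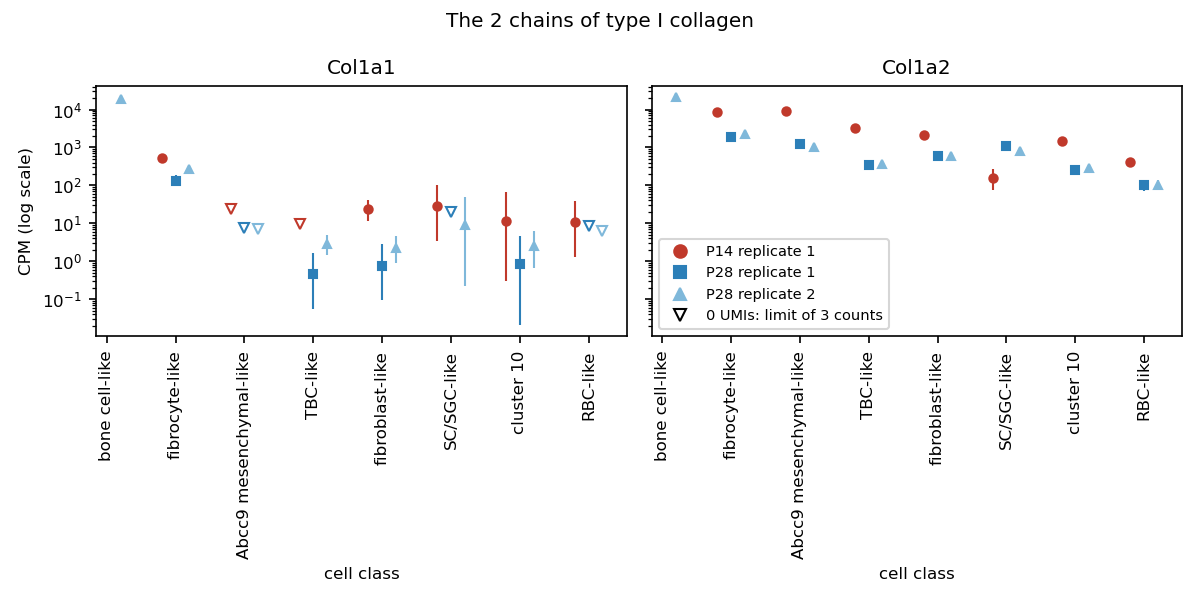
Levels of *Col1a1* (left) and *Col1a2* (right) in CPM on a log axis, by class and library, in the 8 classes where *Col1a2* was highest, with exact Poisson intervals at 95%. Open triangles mark the level that a count of 0 UMIs allows (3 counts in that library), as for *Col1a1* in the *Abcc9* mesenchymal class, where *Col1a2* stands at 9385, 1218 and 1024 CPM.

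The collagens of cartilage-like fibres shared the fibrocyte-like and *Abcc9* mesenchymal classes and were also found in epithelial classes. *Col2a1*, the single chain of type II, reached 6388, 892 and 1118 CPM in fibrocyte-like cells, 7270, 255 and 264 CPM in the *Abcc9* mesenchymal class and 4743 CPM in bone cell-like cells. *Col11a1* reached 3846, 383 and 459 CPM in fibrocyte-like cells, 3089, 190 and 205 CPM in the *Abcc9* mesenchymal class and 6812 CPM in bone cell-like cells. *Col11a2* stood at 2122, 1089 and 1252 CPM in fibrocyte-like cells, so that its P28 libraries lay closer to P14 than those of *Col11a1*. *Col9a1*, a chain of type IX, reached 2028, 264 and 322 CPM in fibrocyte-like cells and 1010, 30.1 and 22.3 CPM in an unnamed cluster led by *Ucma*, *Mia* and *Tdrd12* (cluster 5). *Col9a2* had 620, 390 and 331 CPM and *Col9a3* 1040, 208 and 249 CPM in fibrocyte-like cells. *Col27a1*, a fibrillar collagen of growing cartilage, differed from these, with 326, 453 and 419 CPM in fibrocyte-like cells and 248, 251 and 239 CPM in TBC-like cells, without a higher P14 level in either.

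Basement membrane and network collagens followed other classes. *Col4a1* and *Col4a2*, the chains found in nearly all basement membranes, had their highest means in fibrocyte-like cells (441, 96.6 and 97.2 CPM, and 494, 74.3 and 88.1 CPM). SC/SGC-like cells had 311, 103 and 98.6 CPM of *Col4a1* and 170, 116 and 80.7 CPM of *Col4a2*, above the fibrocyte-like level in both P28 libraries for *Col4a1* and in P28 replicate 1 for *Col4a2*, so that the order of these classes rested on P14. *Col4a3* and *Col4a4*, chains of the network known from the glomerulus and the cochlea, were highest in the *Abcc9* mesenchymal class (554, 110 and 101 CPM, and 721, 193 and 306 CPM), and *Col4a4* stood at 428, 80.7 and 81.8 CPM in RM-like cells. *Col4a5* reached 300, 51.7 and 73.3 CPM in interdental-like cells and 199, 75.6 and 67.9 CPM in fibroblast-like cells, and the values of these classes overlapped. The interdental-like value at P14 rests on few UMIs of 10 cells, where 3 counts already make 179.8 CPM. *Col8a1*, a short-chain collagen of Descemet's membrane and of vessels, stood at 1872, 439 and 492 CPM in RM-like cells and at 1109, 598 and 600 CPM in the *Abcc9* mesenchymal class, with RM-like cells higher at P14 and the *Abcc9* class higher in both P28 libraries. *Col18a1*, the source of endostatin, was highest in ISC/HeC/OSC-like cells (288, 69.4 and 65.0 CPM).

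Some members were most abundant in fibroblast-like cells. *Col15a1*, the other multiplexin, reached 880, 197 and 205 CPM there, and 69.3% of its UMIs came from this class. *Col6a3*, a type VI chain, had 98.2, 31.1 and 28.2 CPM and 67.3% of its UMIs there. *Col3a1* was shared with fibrocyte-like cells, at 1544, 401 and 363 CPM in fibroblast-like and 2753, 602 and 775 CPM in fibrocyte-like cells. *Col26a1*, a secreted collagen of little-known role, had 301, 109 and 124 CPM in fibroblast-like cells. The transmembrane *Col23a1* had 105, 155 and 128 CPM in fibroblast-like and 31.8, 128 and 106 CPM in TBC-like cells, while *Col13a1*, another transmembrane chain, was highest in bone cell-like cells (280 CPM) and in TBC-like cells (337, 60.8 and 63.5 CPM). Among the members with fewer UMIs, 97.1% of the 105 UMIs of *Col19a1* lay in SGN-like cells and 89.9% of the 89 UMIs of *Col22a1* in bone cell-like cells.

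**Figure D3:**
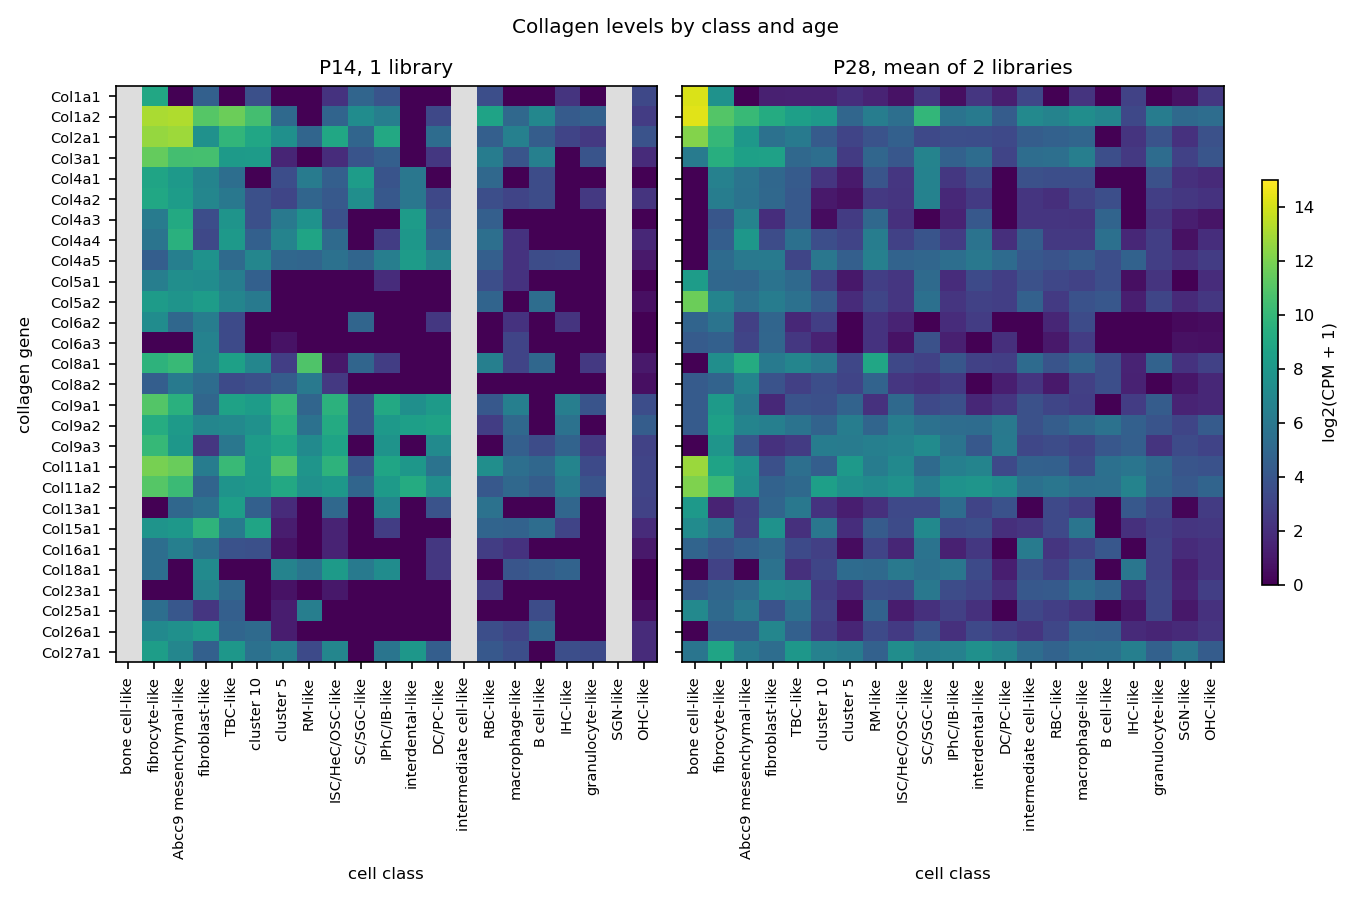
Levels of the members with at least 300 UMIs as log2(CPM + 1), by class at P14 and as the mean of the P28 libraries, with grey for classes under 10 cells and P28 replicate 2 alone where only it had 10 cells. *Col1a1* stands out in the bone cell-like cells of P28 replicate 2 (18543 CPM), and *Col1a2*, *Col2a1* and *Col11a1* in fibrocyte-like and *Abcc9* mesenchymal cells at P14.

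Chains that assemble with each other were compared over classes by Spearman's rho, as a description over 18, 19 and 21 classes that share a library, its depth and its free RNA. The rho of *Col4a1* and *Col4a2* was 0.92, 0.73 and 0.83, and that of *Col4a3* and *Col4a4* was 0.96, 0.46 and 0.78. *Col11a1* and *Col11a2* had 0.89, 0.65 and 0.63, and *Col9a1* and *Col9a2* had 0.92, 0.47 and 0.27. *Col1a1* and *Col1a2* had 0.39, 0.01 and 0.33, the lowest of these pairs in P28 replicate 1. The balance between chains differed between the ages. There were 1.46 UMIs of *Col9a1* for each UMI of *Col9a2* at P14 and 0.317 and 0.285 at P28, and 2.72 UMIs of *Col11a1* for each UMI of *Col11a2* at P14 against 0.649 and 0.683 at P28.

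The type IV genes sit in head-to-head pairs in the genome (GRCm38.p6, GENCODE M21). *Col4a4* and *Col4a3* start 71 bases apart on chromosome 1, the transcription starts of *Col4a1* and *Col4a2* overlap by 22 bases on chromosome 8, and *Col4a6* and *Col4a5* lie 1308 bases apart on the X chromosome. RefSeq promoter windows (250 bases before to 50 after a start) were found for 35 of the 44 genes, in 38 windows. Shown here are the stretch between *Col4a4* and *Col4a3*, whose levels ran together at P14, and the 250 bases before the starts of *Col9a1* (the upstream start of 2), *Col11a1* and *Col11a2*, whose balance differed between the ages. Capitals mark matches on either strand to any of 4 motifs. The CCAAT box was searched as its name spells it. The GC box was searched by the letters GGGCGG on either strand. For the TATA box the searched letters were TATAAA, and for a motif of the SOX type they were NCAANG, where each N could be A or T.
*Col4a4* to *Col4a3*, chr1:82586850-82586920, minus strand: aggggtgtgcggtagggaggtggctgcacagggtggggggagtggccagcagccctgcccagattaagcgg
*Col9a1*, chr1:24177360-24177609, plus strand: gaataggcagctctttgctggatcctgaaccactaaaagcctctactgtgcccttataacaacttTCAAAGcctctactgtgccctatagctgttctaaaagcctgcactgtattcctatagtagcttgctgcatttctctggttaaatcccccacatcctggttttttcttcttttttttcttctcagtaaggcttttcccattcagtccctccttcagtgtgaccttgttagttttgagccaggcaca
*Col11a1*, chr3:114030290-114030539, plus strand: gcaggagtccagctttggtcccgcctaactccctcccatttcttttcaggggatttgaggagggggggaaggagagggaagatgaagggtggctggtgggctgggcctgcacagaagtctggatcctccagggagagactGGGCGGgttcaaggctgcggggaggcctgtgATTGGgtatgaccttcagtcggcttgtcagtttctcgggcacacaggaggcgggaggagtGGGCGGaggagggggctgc
*Col11a2*, chr17:34038888-34039137, plus strand: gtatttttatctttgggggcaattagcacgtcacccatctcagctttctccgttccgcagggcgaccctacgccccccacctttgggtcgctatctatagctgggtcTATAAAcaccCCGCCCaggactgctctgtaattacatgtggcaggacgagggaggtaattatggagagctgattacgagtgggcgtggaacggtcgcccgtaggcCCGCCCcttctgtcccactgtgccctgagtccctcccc

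In the 250 bases before the starts, a GC box was found in 22 of the 38 collagen windows (57.9%), against 32.7% of 32851 windows of all genes. A CCAAT box was found in 13 (34.2%, against 33.9%), a TATA box in 5 (13.2%, against 12.4%) and a SOX-type motif in 12 (31.6%, against 39.4%). The shares of the CCAAT and TATA boxes were close to those of all windows. A match describes these letters only and does not show a site in use.

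The first comparison set all mesenchymal-like classes (fibrocyte-, fibroblast-, TBC- and bone cell-like cells and the *Abcc9* class) against all named epithelial-like classes within each library. Connective tissue cells carried more of most collagens, and 2 collagens went the other way. Sums per library were tested with edgeR's quasi-likelihood test with a term for the library and Benjamini-Hochberg adjustment over all genes, and a gene was called at an adjusted p under 0.05. Of 36 collagens tested, 24 were higher in the mesenchymal-like cells, beside 23.6% of all genes, and 2 were lower, beside 26.0% of all genes. The median log2 fold change was 2.25 over the collagens and -0.01 over all genes. With the term for the library, the p-values measure the spread of the differences within libraries over 3 libraries, each from 1 pool of animals. They do not measure the spread between libraries or ages.

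By type, 8 of 11 fibrillar collagens, 4 of 6 type IV, all 4 tested type VI and all 3 tested transmembrane collagens were higher. *Col1a2* had 4185, 521 and 805 CPM in mesenchymal-like against 34.9, 38.4 and 70.6 CPM in epithelial-like cells, and the groups did not overlap (log2 fold change 4.57, SE 0.67, adjusted p = 0.0014 by edgeR). *Col3a1*, the collagen of reticular fibres, had 1243, 200 and 194 CPM against 6.65, 19.6 and 24.8 CPM (4.20, SE 0.78, adjusted p = 0.0038 by edgeR). *Col5a2*, which regulates the width of fibrils, had 253, 53.7 and 103 CPM against 0, 3.41 and 6.94 CPM (4.60, SE 0.54, adjusted p = 0.00048). *Col1a1* had 61.8, 5.25 and 242 CPM against 4.99, 1.37 and 0.841 CPM (5.44, SE 0.90, adjusted p = 0.0024), and the high value of P28 replicate 2 was that of the library with 29 bone cell-like cells; without these cells the log2 fold change was 3.12 (SE 0.37). *Col24a1* had the largest fold change of the members called, 5.48 (SE 0.68, adjusted p = 0.00063), with 30.4, 4.73 and 5.65 CPM against 0, 0 and 0.420 CPM.

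*Col9a3* and *Col18a1* were higher in the epithelial-like cells. *Col9a3* had 315, 87.9 and 68.5 CPM there against 148, 11.3 and 15.0 CPM in mesenchymal-like cells (log2 fold change -2.10, SE 0.31, adjusted p = 0.0015 by edgeR), and *Col18a1* 209, 55.8 and 47.7 CPM against 68.6, 18.7 and 20.3 CPM (-1.50, SE 0.17, adjusted p = 0.00038). The epithelial level was higher in each library, but across the ages the values overlapped. *Col9a1*, *Col9a2*, *Col11a1* and *Col11a2* were not called, with log2 fold changes of -0.03 (SE 0.26), -0.12 (SE 0.39), 0.08 (SE 0.35) and -0.30 (SE 0.41). With the P14 library left out, 7 collagens were called higher in epithelial-like cells.

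Fibrocytes of the spiral ligament and limbus are embedded in the collagen fibres of the lateral wall. Fibrocyte-like cells (44, 171 and 246 cells) were compared with all other cells, and 22 of 35 collagens tested were higher (beside 7.21% of all genes) and 2 were lower (beside 10.9%). The median log2 fold change was 1.92 over collagens and -0.13 over all genes. This comparison and the ones with other classes that follow share most of the cells of their reference. Of 10 fibrillar collagens tested 9 were higher, with *Col24a1* not called, and so were 5 of 7 FACIT collagens.

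The type II, IX and XI genes rose together in the fibrocyte-like cells. *Col2a1* had 6388, 892 and 1118 CPM against 357, 27.3 and 59.9 CPM in all other cells, with every fibrocyte-like value above every other one (log2 fold change 4.40, SE 0.28, adjusted p = 1.3e-11 by edgeR). *Col11a2* had 2122, 1089 and 1252 CPM against 228, 91.2 and 126 CPM (3.30, SE 0.26), and *Col9a1* 2028, 264 and 322 CPM against 413, 12.8 and 10.8 CPM (3.78, SE 0.40), where the P14 value of the other cells lay above both P28 values of the fibrocyte-like cells. *Col6a1*, a type VI chain, had 273, 44.6 and 54.7 CPM against 8.04, 3.08 and 4.22 CPM (4.16, SE 0.37, adjusted p = 5.9e-09). *Col12a1* and *Col14a1*, FACIT collagens of dense connective tissue, had fold changes of 5.16 (SE 0.61) and 4.03 (SE 0.59) on 24 and 29 UMIs in this class. *Col1a1* was higher (4.65, SE 0.61, adjusted p = 2.6e-06, and 6.58, SE 0.29, with the bone cell-like cells taken out of the other cells).

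*Col18a1* and *Col13a1* were lower. *Col18a1* had 42.0, 7.43 and 6.08 CPM against 84.5, 25.1 and 23.6 CPM (log2 fold change -1.59, SE 0.47, adjusted p = 0.017 by edgeR), and *Col13a1* had 1 UMI in fibrocyte-like cells. Without P28 replicate 1 the number called lower was 1, and without P28 replicate 2 it was 0 by edgeR, with 2 at an unadjusted p under 0.05. The markers of fibroblasts and of bone cells were also found in the fibrocyte-like cells. The summed level of 7 fibroblast markers was 9771, 3709 and 3531 CPM, with *Dpt* at 0 in all 3 libraries, and that of 7 bone cell markers was 2900, 1000 and 754 CPM, against 7927, 5004 and 4584 CPM and 23.5, 6.53 and 27.6 CPM in fibroblast-like cells. Their part in the collagen levels was not tested.

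Fibroblast-like cells (235, 926 and 1484 cells) showed another profile, with *Col3a1*, *Col5a1*, *Col5a2*, *Col15a1* and all tested chains of type VI higher and those of type II, IX and XI lower or not called. Of 37 collagens tested, 20 (54.1%) were higher than in all other cells, beside 14.6% of all genes. The share that was lower, 9 collagens (24.3%), was near the 22.4% of all genes. The median log2 fold change was 1.20 over collagens and -0.07 over all genes. All 4 tested type VI genes and both multiplexins were higher. *Col15a1* had 880, 197 and 205 CPM against 20.4, 10.5 and 16.0 CPM, with no overlap (4.51, SE 0.35, adjusted p = 0.00045 by edgeR). *Col6a3* had 98.2, 31.1 and 28.2 CPM against 0.862, 2.41 and 2.28 CPM (4.35, SE 0.46), *Col6a2* 81.1, 31.1 and 25.4 CPM against 3.88, 2.27 and 3.62 CPM (3.64, SE 0.29), and *Col26a1* 301, 109 and 124 CPM against 8.90, 9.78 and 9.33 CPM (4.13, SE 0.31).

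Within type IV the genes split by chromosomal pair. *Col4a1* and *Col4a2* were higher, with log2 fold changes of 1.80 (SE 0.17) and 2.03 (SE 0.16), and so were *Col4a5* (2.01, SE 0.24) and *Col4a6* (2.46, SE 0.45), while *Col4a3* (-1.67, SE 0.27) and *Col4a4* (-1.39, SE 0.33) were lower. The cartilage-type genes *Col9a3* (-3.85, SE 0.42), *Col9a1* (-3.34, SE 0.35), *Col11a1* (-3.02, SE 0.24) and *Col11a2* (-2.65, SE 0.32) were lower. *Col11a1* had 76.9, 8.06 and 14.9 CPM against 728, 73.2 and 110 CPM, lower in each library but with a P14 value that overlapped the P28 range of the other cells. *Col2a1* was not called (-0.48, SE 0.33, adjusted p = 0.30 by edgeR), nor was *Col1a1*, with 23.5, 0.768 and 2.22 CPM in fibroblast-like cells (-3.30, SE 1.14, adjusted p = 0.064).

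Set directly against each other, fibrocyte-like and fibroblast-like cells differed in 25 of 28 collagens tested: 18 were higher (beside 10.2% of all genes) and 7 lower (beside 11.5%) in fibrocyte-like cells. The median log2 fold change was 1.48 over collagens and -0.01 over all genes. The largest differences were those of *Col9a1* (6.49, SE 0.29, adjusted p = 2e-12 by edgeR), with 2028, 264 and 322 CPM against 29.9, 2.69 and 1.90 CPM, *Col9a3* (6.26, SE 0.28), *Col1a1* (5.95, SE 0.33), *Col14a1* (5.91, SE 0.71) and *Col11a2* (5.69, SE 0.32). In these 5 genes no fibrocyte-like value reached down to a fibroblast-like value. On the fibroblast side stood *Col13a1* (-4.44, SE 0.81), *Col18a1* (-2.51, SE 0.40), *Col23a1* (-2.51, SE 0.32), *Col26a1* (-2.13, SE 0.34) and *Col15a1* (-2.02, SE 0.25). *Col3a1* differed least among the called members, by 0.74 (SE 0.24, adjusted p = 0.031).

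Tympanic border cells line the scala tympani side of the basilar membrane. In TBC-like cells (116, 968 and 1236 cells) the collagens were divided: 13 of 35 (37.1%) were higher than in all other cells, beside 23.8% of all genes, and 10 (28.6%) were lower, beside 29.8%, and the median log2 fold change was -0.16 over collagens and -0.04 over all genes. All 3 tested transmembrane collagens were higher. *Col13a1* had 337, 60.8 and 63.5 CPM against 19.7, 10.1 and 12.9 CPM (3.06, SE 0.25, adjusted p = 6.8e-06 by edgeR), *Col25a1* 22.3, 47.0 and 49.6 CPM against 2.95, 6.42 and 9.17 CPM (2.88, SE 0.16), and *Col23a1* 31.8, 128 and 106 CPM against 7.31, 25.7 and 32.0 CPM (2.24, SE 0.17). *Col25a1* and *Col13a1* did not overlap between the groups.

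*Col27a1* (1.97, SE 0.18), *Col4a3* (1.97, SE 0.23) and *Col4a4* (1.88, SE 0.16) were also higher in TBC-like cells. Here *Col4a3* and *Col4a4* were on the opposite side from *Col4a6* (-3.11, SE 0.57) and *Col4a5* (-1.72, SE 0.24). Both multiplexins were lower, *Col18a1* at -3.08 (SE 0.31) with 0, 2.30 and 4.29 CPM against 87.7, 29.7 and 28.1 CPM, and *Col15a1* (-2.61, SE 0.48). *Col1a1* was lower (-4.91, SE 0.32, adjusted p = 1.9e-06 by edgeR) on 15 UMIs in TBC-like cells, and without the bone cell-like cells among the others the value was -1.61 (SE 0.43, adjusted p = 0.011 by edgeR). Of the 23 members called, 20 differed in the same direction in all 3 libraries, the exceptions being *Col1a2*, *Col6a2* and *Col14a1*. Without the P14 library 16 collagens were called lower.

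Epithelial cells of the sulci and Hensen cells border on the tectorial membrane, whose fibres hold types II, IX and XI. In ISC/HeC/OSC-like cells (307, 625 and 654 cells) 7 of 34 collagens (20.6%) were higher than in all other cells, beside 16.4% of all genes. A further 21 (61.8%) were lower, beside 21.5%. The median log2 fold change was -1.71 over collagens and -0.04 over all genes. The 7 were the 3 type IX chains, both chains of type XI, *Col27a1* and *Col18a1*. *Col18a1* had 288, 69.4 and 65.0 CPM against 48.9, 19.7 and 19.4 CPM, without overlap (2.29, SE 0.17, adjusted p = 0.00014 by edgeR). *Col9a3* had 408, 114 and 83.9 CPM against 162, 28.9 and 28.0 CPM (1.87, SE 0.20), *Col9a1* 802, 34.7 and 32.8 CPM against 370, 13.3 and 13.6 CPM (1.48, SE 0.17) and *Col9a2* 568, 80.8 and 83.4 CPM against 251, 45.2 and 50.6 CPM (1.16, SE 0.15). For the type IX genes the higher group was above the other in each library, and the groups overlapped across the ages.

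*Col2a1* was not called in ISC/HeC/OSC-like cells, with 486, 22.2 and 24.3 CPM (log2 fold change -0.46, SE 0.31, adjusted p = 0.29 by edgeR). The 3 tested type VI genes and 5 of 6 type IV genes were lower, and the largest falls were those of *Col1a1* (-4.51, SE 0.79), *Col25a1* (-3.73, SE 0.49), *Col24a1* (-3.57, SE 0.79), *Col4a6* (-3.43, SE 0.67) and *Col6a3* (-3.34, SE 0.63), each on 2 to 7 UMIs in this class. Without the bone cell-like cells among the others the value of *Col1a1* was -2.16 (SE 0.49, adjusted p = 0.011 by edgeR), and it was no longer the largest of these. Leaving out P28 replicate 1 reduced the 21 lower calls to 13.

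The supporting cells of the organ of Corti (Deiters, pillar, inner phalangeal and inner border cell-like cells, together 34 collagens tested) had 3 collagens that were higher than in all other cells (beside 13.4% of all genes) and 21 that were lower (beside 21.5%). The median log2 fold change was -1.93 over collagens and -0.07 over all genes. *Col13a1* had 71.0, 36.6 and 32.6 CPM against 29.8, 17.7 and 22.5 CPM (0.99, SE 0.19, adjusted p = 0.0052 by edgeR). *Col18a1* (0.94, SE 0.24) and *Col4a5* (0.81, SE 0.20) were the others. Without P28 replicate 1 the numbers were 0 higher by edgeR, with 2 at an unadjusted p under 0.05, and 13 lower, and without P14 there were 5 higher.

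*Col24a1* had 0 UMIs in these supporting cells. Among the other members called lower, *Col1a1* (-4.03, SE 0.82), *Col14a1* (-3.68, SE 0.91), *Col5a2* (-3.31, SE 0.39) and *Col26a1* (-3.00, SE 0.42) fell most. *Col1a1* was no longer called without the bone cell-like cells (-1.58), whose RNA makes up most of the 96.9 CPM of the other cells in P28 replicate 2. The type IX and XI genes were not called here, with log2 fold changes from -0.45 to 0.53.

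Schwann and satellite glial cells make a basal lamina around themselves. The SC/SGC-like class was small (30, 69 and 47 cells), and 3 of 35 collagens were higher (beside 3.07% of all genes) and 4 lower (beside 4.48%), with a median log2 fold change of -0.62 over collagens and -0.33 over all genes. The higher members were *Col4a1*, with 311, 103 and 98.6 CPM against 27.4, 10.2 and 14.9 CPM (3.10, SE 0.46, adjusted p = 1.4e-09 by edgeR), *Col4a2*, with 170, 116 and 80.7 CPM against 29.8, 9.94 and 12.7 CPM (2.83, SE 0.50), and *Col14a1*, with 14.1, 206 and 108 CPM against 2.72, 2.74 and 2.63 CPM (5.20, SE 0.62, adjusted p = 1.7e-14). In each of the 3 genes every glial value was above every other one. For *Col14a1*, though, the P14 glial value lay below 42.4 CPM, the level of 3 counts in that class. Its higher level thus rests on the P28 libraries. *Col2a1* (-3.55, SE 0.67), *Col9a1* (-3.30, SE 0.80), *Col8a1* (-2.73, SE 0.69) and *Col11a1* (-2.52, SE 0.53) were lower, on 3 to 10 UMIs in this class. *Col9a1* was the only one of the 7 called members that did not differ in the same direction in all 3 libraries. Leaving out P28 replicate 1 left 1 higher and 2 lower, and leaving out P14 gave 7 higher.

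**Figure D4:**
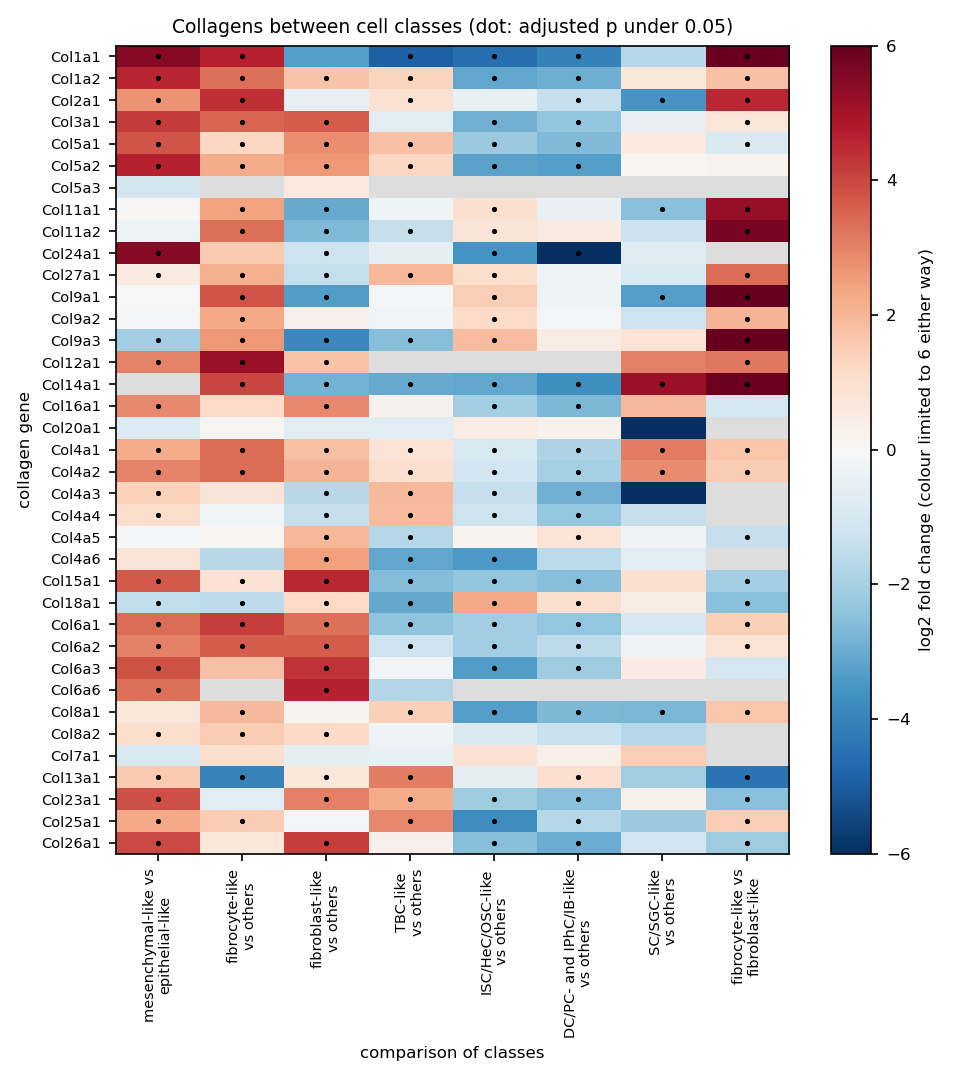
Log2 fold change of each collagen in the comparisons of classes (rows, genes; columns, comparisons; edgeR, library as a term), with dots on members called at an adjusted p under 0.05, grey where a gene was not tested and the colour limited to 6 either way. *Col9a1* stands at 3.78 in fibrocyte-like and at -3.34 in fibroblast-like cells, both against all other cells.

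Other genes of collagen biology were taken from lists by function: 34 genes for synthesis, folding, processing and cross-linking, 10 receptors and 9 genes of breakdown. In mesenchymal-like against epithelial-like cells 18 of 29 tested synthesis genes were higher and 4 lower, 6 of 8 receptors were higher and 2 lower, and 6 of 6 breakdown genes were higher, beside 23.6% of all genes higher and 26.0% lower. In fibrocyte-like cells the numbers were 12 higher and 1 lower of 27, 5 and 0 of 8, and 4 and 0 of 6, beside 7.21% and 10.9% of all genes. *Serpinh1*, the collagen chaperone of the endoplasmic reticulum, had 830, 580 and 492 CPM in fibrocyte-like cells against 153, 108 and 133 CPM in all others (log2 fold change 2.18, SE 0.25, adjusted p = 3.8e-07 by edgeR). *Pcolce*, which enhances the removal of the C-propeptide, was higher there by 2.56 (SE 0.27). In fibroblast-like cells 14 synthesis genes were higher and 3 lower of 27 (beside 14.6% and 22.4% of all genes), and in TBC-like cells 19 and 3 of 29 (beside 23.8% and 29.8%).

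Single enzymes set classes of connective tissue apart. *Lox*, the lysyl oxidase that starts cross-links, had 2133, 348 and 434 CPM in TBC-like cells against 65.9, 92.1 and 111 CPM in all others (3.03, SE 0.51, adjusted p = 0.00075 by edgeR). *Plod2*, a lysyl hydroxylase that shapes the type of cross-link, was higher in TBC-like cells (2.04, SE 0.18) and lower in fibroblast-like cells (-2.02, SE 0.20). Of the collagen receptors that signal as kinases, *Ddr2* was higher in mesenchymal-like cells (4.07, SE 0.62) and *Ddr1* lower (-1.71, SE 0.20). In the supporting cells of the organ of Corti 6 of 28 synthesis genes were higher and 13 lower (beside 13.4% and 21.5% of all genes), and *Serpinh1* was among the lower (-1.37, SE 0.14), while *Sparc*, a collagen-binding matrix protein, had 8245, 2068 and 1922 CPM against 2370, 427 and 490 CPM (2.06, SE 0.14, adjusted p = 6.4e-05). In SC/SGC-like cells the shares of synthesis genes called were near those of all genes (3.07% and 4.48%), and 1 of 28, *Loxl2* (2.28, SE 0.77), was higher and 1, *Lox* (-3.57, SE 0.62), was lower.

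The ages were compared class by class without a test, since P14 was sequenced once. A member was counted as higher or lower at P14 in a class where its level was at least 50 CPM on the higher side with at least 30 UMIs, at least 2-fold from both P28 libraries, and its exact Poisson interval overlapped neither of theirs. There were 201 pairs of a collagen and a class with at least 50 CPM in any library, whatever their UMIs, found in 17 classes. Of these, 80 (39.8%) were higher at P14 and 6 (2.99%) were lower. Pairs with fewer than 30 UMIs at P14 are among the 201, though they could not count as higher. Over all genes, 3.52% of 76757 pairs were higher and 3.21% lower. The 80 pairs involved 23 collagens and 11 classes. In 77 of the 80 the level was still at least 2-fold higher when each cell was thinned to 1000 UMIs, and in 74 it lay above the levels of the red blood cell-like, B cell-like and macrophage-like cells of the P14 library. On the thinned counts alone, which hold fewer UMIs, 39 pairs met the rule as higher and 0 as lower, and without P28 replicate 1 there were 80 higher and 12 lower. Age, library and the mitochondrial share of the pools cannot be told apart with 1 library at P14.

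In fibroblast-like cells 15 of 18 collagens at 50 CPM or more were higher at P14, beside 6.56% of all genes of that class. The *Abcc9* mesenchymal class had 13 of 24 (beside 2.39%), TBC-like cells 12 of 18 (beside 3.69%) and fibrocyte-like cells 9 of 23 (beside 1.31%). Outside these classes there were 9 of 10 in cluster 5 (beside 9.02%), 7 of 11 in inner phalangeal and inner border cell-like (IPhC/IB-like) cells (beside 6.58%) and 6 of 9 in ISC/HeC/OSC-like cells (beside 7.40%). RM-like cells had 2 of 12 (beside 1.44%), Deiters and pillar cell-like cells 2 of 7 (beside 3.80%) and cluster 10 had 3 of 13 (beside 1.14%). Among the gauge classes for free RNA, red blood cell-like cells had 2 of 5 (beside 8.63%). These were *Col1a2*, with 411 against 101 and 104 CPM, and *Col11a1*, with 169.8 against 20.1 and 26.9 CPM. They had 75 and 31 UMIs at P14, and no other collagen of this class had the UMIs that the rule asks for. B cell-like, macrophage-like and granulocyte-like cells had 0 of 8, 0 of 9 and 0 of 1. The leading collagen there held 19.4% of 62, 19.1% of 131 and 21.7% of 23 collagen UMIs at P14. That is fewer UMIs than the rule asks for, so these counts of 0 do not show whether levels differed. Neither the 12 collagens of interdental-like cells (10 cells at P14) nor the 16 of SC/SGC-like cells counted as higher. These classes held 43 and 67 collagen UMIs at P14, and no member had the 30 UMIs that the rule asks for. Their counts of 0 thus do not show whether levels differed. Different clusters held most of the fibroblast-like cells at the ages, with 79 cells in cluster 0 and 156 in cluster 2 at P14, against 598 and 328, and 968 and 516, at P28. Within cluster 0, 5 of 21 collagens were higher at P14, and within cluster 2, 14 of 18. The TBC-like cells were likewise split, with 53 cells in cluster 1 and 63 in cluster 4 at P14, against 633 and 335, and 805 and 431, at P28. Within cluster 1, 4 of 21 collagens were higher at P14, and within cluster 4, 10 of 17.

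Among the genes of type II, IX and XI, *Col2a1* was higher at P14 in 8 of 9 classes, *Col11a1* in 8 of 14, *Col9a1* in 7 of 11, *Col9a2* in 6 of 12, *Col9a3* in 5 of 10 and *Col11a2* in 3 of 15. *Col2a1* stood at 7270 CPM at P14 against 255 and 264 CPM in the *Abcc9* mesenchymal class, 27.6-fold above the nearer P28 library, and at 539 against 10.3 and 12.5 CPM in IPhC/IB-like cells (43.2-fold). In ISC/HeC/OSC-like cells *Col9a1* stood at 802 CPM against 34.7 and 32.8 CPM (23.1-fold), and at 1010 against 30.1 and 22.3 CPM in cluster 5 (33.6-fold). *Col11a1* stood at 1151 CPM in TBC-like cells against 44.7 and 43.1 CPM (25.7-fold). In all of these the P28 libraries lay close to each other and far from P14.

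**Figure D5:**
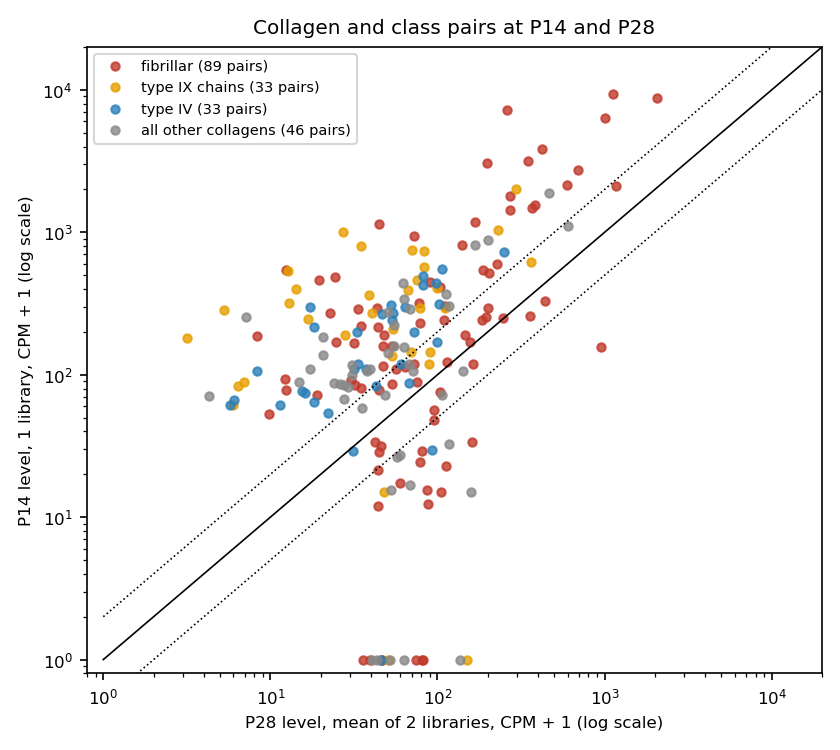
Levels at P14 (y axis) against the mean of the P28 libraries (x axis), both as CPM + 1 on log axes, for each of the 201 pairs of a collagen and a class at 50 CPM or more, coloured by type of collagen. The solid line marks equal levels and the dotted lines a 2-fold difference, and the 80 pairs counted as higher at P14 lie above the upper dotted line, the 6 counted as lower below the lower one.

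Other collagens of the matrix were also higher at P14. Of 33 type IV pairs 14 were higher, and of 14 multiplexin pairs 7. *Col4a3* stood at 216 CPM in TBC-like cells at P14 against 15.4 and 19.1 CPM (11.3-fold) and *Col15a1* at 253 CPM in the *Abcc9* mesenchymal class against 7.50 and 4.71 CPM (33.8-fold). *Col8a1* of RM-like cells stood at 1872 against 439 and 492 CPM (3.81-fold). *Col1a2* was higher at P14 in 6 of 14 classes and lower in 3. *Col27a1* was higher in 0 of 13 classes, and in inner hair cell-like cells it was lower at P14 (11.3 against 85.6 and 87.5 CPM). That P14 level rests on 3 UMIs, and these cells had medians of 1025.5, 9310 and 8007.5 UMIs.

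For the other 5 pairs that were lower at P14 the levels of the 7 fibroblast markers are given beside the collagen. *Col1a2* stood at 155 CPM in SC/SGC-like cells at P14 against 1107 and 807 CPM, and the summed level of the 7 fibroblast markers was 70.6 CPM at P14, with 5 of them at 0, against 689 and 852 CPM, with *Dpt* and *Pi16* at 0. In macrophage-like cells *Col1a2* stood at 32.8 against 91.0 and 229 CPM and *Col3a1* at 14.6 against 70.2 and 101 CPM, where the fibroblast markers summed to 223, 780 and 1535 CPM, most of it *Dcn* at P28. In RM-like cells *Col1a2* had 0 UMIs at P14 against 63.5 and 97.9 CPM, with fibroblast markers at 466, 803 and 684 CPM, and in TBC-like cells *Col23a1* stood at 31.8 against 128 and 106 CPM, with fibroblast markers at 467, 425 and 470 CPM. The part of fibroblast RNA in these levels was not tested.

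The genes of collagen synthesis were counted by the same rule. Of 227 pairs of a synthesis gene and a class, 50 were higher at P14 and 3 lower, beside 3.52% and 3.21% of all pairs, led by *Sparc* in 12 classes, with *Serpinh1*, *P4ha1*, *Ppib* and *Pcolce2* in 5 each. The pairs include red blood cell-like cells, a gauge class for free RNA, with *Sparc* at 460 CPM at P14 against 141 and 184 CPM. *Lox* stood there at 340 against 51.8 and 24.8 CPM. Thinned levels and gauge levels were not checked for these genes. In ISC/HeC/OSC-like cells *Sparc* stood at 6177 CPM at P14 against 610 and 501 CPM, and *Serpinh1* at 911 CPM in the *Abcc9* mesenchymal class against 373 and 327 CPM. Of 49 receptor pairs 10 were higher, 8 of them *Itgb1*, the shared chain of the collagen-binding integrins, and 3 were lower. Of 66 pairs of breakdown genes 8 were higher and 8 lower, to be set beside the same shares, with *Mmp14*, a collagenase of the cell surface, higher at P14 in 4 classes and *Timp3*, an inhibitor, lower in 4.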

How the data were processed

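For each library, made with the 10x 3′ kit v3.1, the authors deposited a matrix of UMI counts of genes by barcodes. Cell Ranger is given as version 5.0.1 in the file headers and 6.0.1 in the submitters' processing notes, which name mm10. The counts carry no normalization. Cells were kept as the rule states, and kept libraries held 7432047, 24596587 and 23300859 UMIs. Exact Poisson intervals at 95% cover counting error only. Scrublet (scanpy 1.11.5) marked 1, 0 and 1 barcodes as doublets and had thus not worked, so none was removed.

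The libraries were integrated by anchors in Seurat 5.3.0 (R 4.3.3) on 2000 variable genes without collagens, and clustered by the Louvain method (resolution 1, 30 principal components). To be named, a cluster needed 3 or more markers that were found in 5% of its cells and stood 1 log2 unit or more above the median of clusters, and no other type could have more markers among its 10 leading genes. Pericyte-, basal cell-, chondrocyte-, spindle and root cell- and marginal cell-like clusters were looked for and none was named. UMIs summed per class and library were tested in edgeR 4.0.16 (quasi-likelihood, TMM, filterByExpr, a term for the library, Benjamini-Hochberg adjustment over all genes, threshold 0.05), after a test on simulated data. Standard errors are the log2 fold change divided by the square root of F. Both sums of a library come from the same pool, which pairs them, and their deviations from the group means correlated by 0.0775 to 0.492 across genes.

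The text gives values mainly for members with at least 300 UMIs, though not for all of them. It names members called with statistics for at most 5 in each direction of a comparison, and applies the rule for ages stated there. A few other values were chosen after they were seen. The members and lists were chosen with earlier results of these data known. Alternatives were DESeq2 1.42.0, other filters on counts, no library term, each library left out, other limits on cells, other clusterings, high doublet scores left out, other scalings and thinning to 1000 UMIs. The lack of bone cell-like cells, each cluster in place of each class and, for the ages, each P28 library left out were added after seeing the data. Promoters came from RefSeq windows on GRCm38.p6, and figures from matplotlib 3.10.9 (Python 3.11.15).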

Additional observations from a re-analysis of the deposited data

Results flagged for a closer look

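Among members with at least 300 UMIs there were 10 cases in which the P14 library moved one way and both P28 libraries the other under the same comparison of classes, with exact Poisson intervals at 95% that lay apart in each library. Without that condition there were 28 cases, which are not listed. Values are log2 ratios of CPM + 1. These differences between the ages were not tested, and none of these genes was called in the comparison named, except as stated. In mesenchymal-like against epithelial-like classes the ratio of *Col4a5* was 0.85 at P14 and -0.36 and -0.51 at P28, that of *Col9a2* was -1.25 against 0.51 and 0.39, and that of *Col11a2* was 1.07 against -1.42 and -0.41. In fibroblast-like against all other cells *Col9a2* stood at -1.39 at P14 and at 1.07 and 0.73 at P28. In TBC-like cells *Col11a1* stood at 0.79 against -0.65 and -1.33, and *Col3a1* at 0.71 against -1.28 and -1.66. In ISC/HeC/OSC-like cells *Col2a1* stood at 0.19 against -0.76 and -1.67.

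In SC/SGC-like cells 3 genes met both conditions, on 30 cells and 70795 UMIs at P14. *Col15a1* stood at -6.25 at P14 and at 1.85 and 1.95 at P28, and *Col9a3* at -7.65 against 1.77 and 2.37, with 0 UMIs of both in the P14 class, so that the size of these ratios depends on the added 1 CPM. *Col1a2* stood at -2.01 against 2.49 and 1.16.

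Barcodes outside the limits on genes and mitochondrial UMIs, which no comparison used, also held collagen RNA. Collagens made up 0.139% of their UMIs at P14 and 0.118% and 0.138% in the P28 libraries.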

How the results depend on the processing

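Over the alternatives, 199 of the counts of called collagens stayed within 1.5 times the reported count and 41 did not. Of the log2 fold changes of named members 919 kept their call, 64 lost it and 1 changed direction: *Col13a1* in fibrocyte-like cells with 30% mitochondrial UMIs allowed (0.0752). The replicate block mattered most. With no replicate block the counts of higher and lower collagens were, for mesenchymal-like classes, fewer lower (0, with 2 at an unadjusted p under 0.05); for fibrocyte-like cells 11 and 1; for fibroblast-like cells 13 and 5; for TBC-like cells 6 and 5; for ISC/HeC/OSC-like cells 1 and 13; for organ of Corti supporting cells 0 and 12; for SC/SGC-like cells 0 lower (5 unadjusted); and for fibrocyte-like against fibroblast-like cells 11 and 3. With at least 10 UMIs in every sum, which tests fewer genes, 10 were higher in mesenchymal-like classes, 0 lower in fibrocyte-like (0 unadjusted), 3 lower in fibroblast-like, 4 lower in TBC-like, 2 lower in ISC/HeC/OSC-like and in supporting cells, 1 higher and 0 lower in SC/SGC-like cells (0 unadjusted) and 1 lower in fibrocyte-like against fibroblast-like cells. DESeq2 called 1 lower in fibrocyte-like and 1 lower in SC/SGC-like cells. With 3000 genes and 15000 UMIs at most, 4 were lower in mesenchymal-like classes and 8 higher in TBC-like cells. With 30% mitochondrial UMIs, 1 was lower in fibrocyte-like and 7 higher in SC/SGC-like cells, and with P14 clustered alone 2 were lower in SC/SGC-like cells. Between the ages, thinning to 1000 UMIs gave 39 pairs higher and 0 lower. The cause of these shifts was not tested, apart from the fewer genes and UMIs that a stricter filter and thinning leave.

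Leaving out each library in turn gave 22 to 26 higher and 2 to 7 lower in mesenchymal-like classes (7 without P14), 18 to 21 and 0 to 2 in fibrocyte-like cells, 15 to 21 and 7 to 11 in fibroblast-like cells, 11 to 13 and 9 to 16 in TBC-like cells (16 without P14), 5 to 8 and 13 to 24 in ISC/HeC/OSC-like cells, 0 to 5 and 13 to 23 in supporting cells, 1 to 7 and 2 to 4 in SC/SGC-like cells (7 without P14), 12 to 17 and 6 to 8 in fibrocyte-like against fibroblast-like cells, and 80 to 83 and 9 to 12 for the pairs higher and lower at P14. At these depths a gene under about 50 CPM rests on few UMIs in small classes.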

Other observations

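The unnamed clusters also held collagen RNA, and took part in the comparisons as other cells alone. Cluster 5 had a collagen share of 0.524% at P14 and of 0.0816% and 0.0936% at P28, with 7898 collagen UMIs at P14. In P28 replicate 2 its share lay within the range of the gauge classes for free RNA (0.0518% to 0.102%). It had 6 markers of ISC/HeC/OSC cells, but another type had more among its leading genes. It was thus on neither side of the mesenchymal-like and epithelial-like comparison, and among the other cells for ISC/HeC/OSC-like cells. What this changed for the type IX and XI genes was not tested. Cluster 10, led by Fxyd2, Kcnk2 and Gjb2, had a collagen share of 0.461% at P14 and of 0.122% and 0.128% at P28, with *Col1a2* at 1439 CPM against 253 and 288 CPM. *Col4a5* stood at 118 CPM there at P14 and at 65.7 and 53.7 CPM at P28. Intermediate cell-like cells, the pigment cells of the stria, were found in numbers in P28 replicate 2 alone (112 cells). Their collagen share of 0.0696% also lay within the gauge range of that library. *Col16a1* stood at 73.3 CPM in these cells, against 87.1, 27.5 and 18.8 CPM in the *Abcc9* mesenchymal class. *Col14a1* stood at 14.6, 62.2 and 40.9 CPM in macrophage-like cells, by the mean over libraries the class after SC/SGC-like and fibrocyte-like cells. Fibrocyte-like cells had 115.6, 26.0 and 33.4 CPM, so that their place before macrophage-like cells rested on P14. In P28 replicate 1 *Col14a1* held 12.6% of the 310 collagen UMIs of the macrophage-like cells, a gauge class for free RNA. Whether these cells make this RNA was not tested.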
